A study of Homo sapiens with 6 samples.

Results

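The 33 genes described here encode the HLA molecules that show peptides to T cells and the proteins that cut, carry, load and edit those peptides. They were taken by name from the gene rows of the count and TPM values (TPM being an abundance scaled for transcript length and depth), and all 33 were found among 61228 gene names. The class I pathway holds 19 of them (5 heavy chains, the light chain B2M, 5 peptide loading proteins, 5 proteasome subunits and activators, 2 trimming peptidases and NLRC5). The class II pathway holds 12 (6 chains, 4 peptide editing proteins, CD74 and CIITA), and the MHC-like molecules CD1D and MR1 complete the list. On GRCh38 with GENCODE v44, 20 of the genes lie in the major histocompatibility complex on chromosome 6, between positions 29722775 and 33314284. The other 13 lie on chromosomes 1, 5, 14, 15 and 16.

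HBE cells, an immortalized human bronchial epithelial line of wild-type genotype, were treated for 24 h with CRE, a cockroach extract used as allergen, or with CRE+VAF347, in which VAF347, an agonist of the aryl hydrocarbon receptor (AhR), was given ahead of CRE. Each treatment had 3 poly(A) RNA-seq libraries. Every library carried CRE, so the comparison gives the difference that VAF347 made on top of CRE, and cells without CRE were not analysed here. The labels do not say that the libraries came from separate cultures, so the p-values measure only the spread between these libraries, which may be technical. The cells are 1 line in culture without any partner immune cell. In bulk RNA, fewer cells that use a gene and less RNA per cell cannot be told apart.

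The libraries held 8873160 to 10750283 counts. *CYP1A1*, an AhR target gene, had 6, 8 and 5 counts in CRE and 454, 412 and 460 in CRE+VAF347, which matched the labels. CRE replicate 3 stood apart from its group: over all genes its counts differed from those of CRE replicates 1 and 2 by a mean chi-square of 9.32 and 9.04 per gene, against 1.78 to 2.57 for the other pairs of replicates. The epithelial list held 8 genes, 1 of which, CDH2 (N-cadherin), is not a marker of epithelium. In it KRT8, KRT18, KRT19, EPCAM and CDH1 had a mean of 266 to 1217 TPM, and those levels went with the epithelial label. TP63 was scarcely present, and the values of KRT5 and CDH2 are not given. Of the 15373 genes that passed the filter on low counts, 833 (5.42%) differed at an adjusted p under 0.05 in edgeR's quasi-likelihood test with Benjamini-Hochberg adjustment, 626 of them lower with VAF347 (4.07%) and 207 higher (1.35%).

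Class I molecules sit on nearly all nucleated cells. A heavy chain pairs with B2M in the endoplasmic reticulum and receives peptides that the proteasome has cut from cytosolic proteins and that the TAP transporter has carried in. Class II molecules are made mainly by professional antigen presenting cells, in which CD74 guards the groove until HLA-DM exchanges its remnant for a peptide from the endosome. Airway epithelial cells carry class I at rest and can gain class II under interferon gamma, through the transactivators CIITA for class II and NLRC5 for class I.

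No tested member passed the test for a difference with VAF347. Of the 33 genes, 29 passed the filter on low counts, and edgeR's quasi-likelihood test called 0 of them (0 of 19 in class I, 0 of 9 in class II, and not MR1), where 5.42% of all genes tested were called. With an absolute log2 fold change over 0.5 asked for as well, the members' count is 0 again and the share of all genes is 2.21%. At an unadjusted p under 0.05 the same test listed 5 of the 29, namely TAP2 on the higher side and PSMB10, ERAP1, HLA-DRB1 and HLA-DMB on the lower side. That unadjusted threshold listed 20.8% of all genes tested. DESeq2 called 0 members after adjustment and listed ERAP1 and HLA-DRB1 unadjusted. The limma test on log2(TPM + 1) also called 0 and listed 3 unadjusted, PSMB10, HLA-DRB1 and HLA-DMB.

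The precision behind these results differed between the pathways. The 95% confidence interval of the log2 fold change reached a median of 0.18 to either side in class I and 0.49 in class II, whose genes had far fewer counts. In class I, every tested gene but HLA-G had an interval that stayed within 0.39 of 0 on the log2 scale. In class II, intervals reached as far as -1.08, and the interval of HLA-DRA, for example, ran from -0.99 to 0.47.

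**Figure D1:**
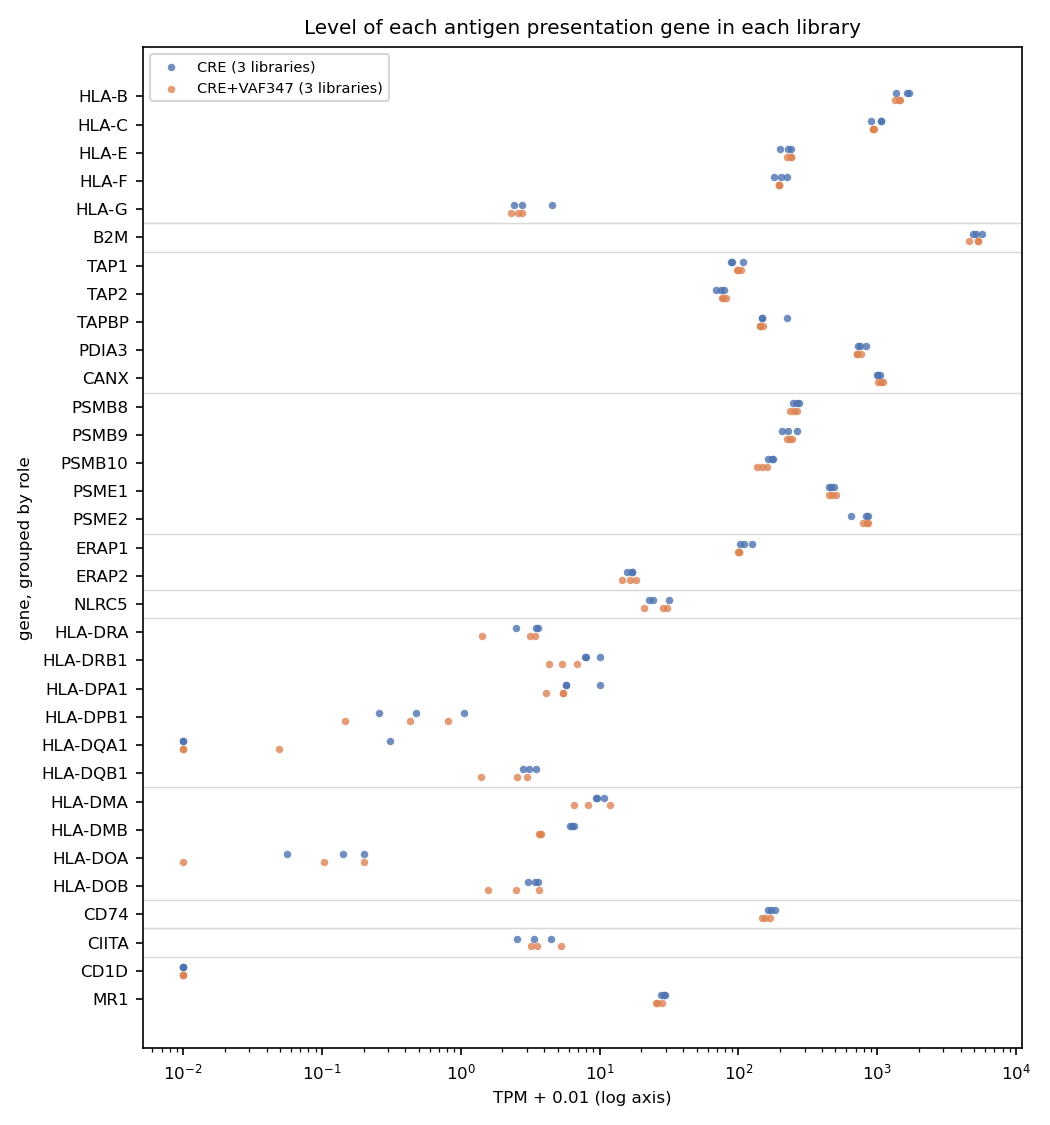
TPM plus 0.01 on a log axis (horizontal) for each of the 33 genes (vertical, grouped by role), with 1 point per library, 3 of CRE in blue and 3 of CRE+VAF347 in orange. Class I genes other than HLA-G lie from 14.6 TPM upwards, while class II chains and editing genes lie at 12.0 TPM or lower and the points of both groups lie close together in most rows.

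The class I heavy chains were among the abundant transcripts of these cells. HLA-B, a classical heavy chain that shows peptides to CD8 T cells, had a mean of 1492 TPM over the 6 libraries and ranked 82 of 61228 gene names. HLA-C, the other classical chain in the list, had 977 TPM. The non-classical chains HLA-E, which presents leader peptides to NK cell receptors, and HLA-F had 229 and 199.7 TPM. HLA-G, a chain best known from the placenta, had 2.89 TPM. The order from HLA-B through HLA-C, HLA-E and HLA-F to HLA-G held in every library, and HLA-E and HLA-F, the closest neighbours in it, were at 227 and 222 TPM in CRE replicate 2.

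CPM (counts scaled to library size, with TMM factors) of HLA-B were 1409, 1731 and 1423 in CRE and 1498, 1473 and 1329 in CRE+VAF347, so the groups overlapped. The log2 fold change of HLA-B (CRE+VAF347 over CRE, here and throughout) was -0.09 (SE 0.09, 95% confidence interval -0.27 to 0.10, adjusted p = 0.614). HLA-C had 1111, 1270.5 and 1099.6 CPM in CRE and 1089.6, 1100.5 and 1043 in CRE+VAF347, a log2 fold change of -0.11 (interval -0.26 to 0.04, adjusted p = 0.415). In both genes CRE replicate 2 was the highest library.

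HLA-E was the only heavy chain with a positive estimate. It had 368, 413 and 379 CPM in CRE and 421, 419.8 and 389.8 in CRE+VAF347, and its log2 fold change was 0.09 (interval -0.06 to 0.23, adjusted p = 0.503). HLA-F had 176, 210.2 and 163 CPM in CRE against 178, 183 and 173 (log2 fold change -0.04, interval -0.23 to 0.15). HLA-G rested on 22 to 46 counts per library, and its log2 fold change of -0.33 had an interval from -0.95 to 0.30. CRE replicate 2, with 4.51 CPM of HLA-G, was well above the other 5 libraries, which had 2.15 to 2.90 CPM, and without it the log2 fold change was 0.01.

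The ratio of HLA-B to HLA-E separated the groups although neither gene did. In TPM it was 6.83, 7.25 and 7.11 in CRE (7.06 ± 0.217, SD, n = 3) and 6.06, 6.00 and 5.96 in CRE+VAF347 (6.00 ± 0.0493). This ratio was computed after the values of both genes had been seen, and it is given as a description. The 5 heavy chains summed to 2648, 3169 and 3211 TPM in CRE and 2851, 2815 and 2703 in CRE+VAF347, with overlap.

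Class I promoters are known for sites through which interferon acts on these genes, and the stretches here are shown because the heavy chains are alike in sequence while their levels differ widely. RefSeq (GRCh38.p14) gave the 250 bases before the start site for 28 of the 33 genes, and none for HLA-E, PDIA3, NLRC5, HLA-DRA and CIITA. In a global alignment of these windows HLA-B and HLA-C were identical in 226 of 254 columns (89.0%), HLA-B and HLA-F in 80.4%, and HLA-C and HLA-F in 78.2%. Apart from that of B2M, the printed stretches leave out bases that GENCODE places in an exon of a longer transcript. Of B2M only 30 bases around its ISRE letters are shown, without regard to exons, which cover 113 bases of its window. Capitals mark, on either strand, a pair of GAAA words set 2 bases apart (the interferon-stimulated response element, ISRE), TTC and GAA set 3 bases apart (the STAT site GAS), CCAAT (bound by NF-Y), TGACG (the core of CREB sites) and GCGTG (the core of the AhR site). In HLA-B and HLA-C they also mark the longest run that both windows share, which is 25 bases long. The parts not printed of the HLA-B, HLA-F and B2M windows also held matches. All 3 had CCAAT and the AhR core there, and HLA-B and B2M had TGACG as well.
HLA-B, chr6:31357294-31357429, minus strand: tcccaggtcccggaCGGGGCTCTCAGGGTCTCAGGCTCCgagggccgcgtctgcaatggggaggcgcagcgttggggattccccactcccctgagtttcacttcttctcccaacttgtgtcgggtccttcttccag
HLA-C, chr6:31272131-31272342, minus strand: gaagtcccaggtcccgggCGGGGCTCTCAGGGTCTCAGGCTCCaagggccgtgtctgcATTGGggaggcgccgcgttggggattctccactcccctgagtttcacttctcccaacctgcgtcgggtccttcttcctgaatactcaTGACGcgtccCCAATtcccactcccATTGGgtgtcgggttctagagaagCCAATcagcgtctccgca
HLA-F, chr6:29723184-29723305, plus strand: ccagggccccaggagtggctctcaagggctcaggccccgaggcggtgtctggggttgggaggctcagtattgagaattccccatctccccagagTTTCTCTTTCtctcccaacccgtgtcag
B2M, chr15:44711366-44711395, plus strand: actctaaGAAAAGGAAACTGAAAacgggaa

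The ISRE letters stood at -156 to -147 from the start site in HLA-F and as a pair of overlapping matches from -144 to -129 in B2M, and the windows of HLA-B and HLA-C did not hold them. They were found in 8 of the 28 members, in at least 1 window of each gene, and in 3.02% of all 35116 promoter windows of the same length. GAS letters were in 4 members (6.57% of all windows), CCAAT in 20 (32.0%), TGACG in 11 (21.2%) and the AhR core in 12 (32.2%). A match says that the letters are there, and a missing match says only that these letters are not in this window.

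B2M, the light chain that every class I heavy chain needs, was the most abundant member at 5167 TPM and ranked 8 of 61228 gene names. It had 1496, 1639 and 1264 CPM in CRE and 1556, 1544 and 1334 in CRE+VAF347. Its log2 fold change was 0.01 (SE 0.09, interval -0.20 to 0.22, adjusted p = 0.963), and leaving out single libraries moved it from -0.09 to 0.10. The 5 heavy chains and B2M together took 0.431% to 0.520% of the counts of a library.

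Peptide loading genes had estimates on both sides of 0. TAP1 and TAP2 form the transporter that carries peptides into the endoplasmic reticulum. TAP2 had 173, 194 and 169 CPM in CRE and 196, 200.4 and 204 in CRE+VAF347, so the groups did not overlap, and its log2 fold change was 0.16 (SE 0.07, interval 0.02 to 0.31, adjusted p = 0.192). TAP1 had 147, 151 and 159 CPM against 166, 159.7 and 155 (log2 fold change 0.07, interval -0.06 to 0.20). In TPM both parts of the transporter were close, at 98.4 for TAP1 and 76.3 for TAP2.

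TAPBP (tapasin) bridges TAP to the empty class I molecule, PDIA3 joins it as the disulfide isomerase of the loading complex, and CANX (calnexin) holds the new heavy chain while it folds. TAPBP had 336, 337 and 389 CPM in CRE and 317, 322 and 323 in CRE+VAF347, with a log2 fold change of -0.14 (interval -0.29 to 0.01, adjusted p = 0.268). PDIA3 had 764, 784 and 762 CPM against 750.1, 738 and 712 (log2 fold change -0.07, interval -0.19 to 0.05). In CPM of both genes every CRE library was above every CRE+VAF347 library, by a margin smaller than the spread within CRE. CANX, at 1041 TPM the third most abundant member, had 1208 to 1283 CPM in CRE and 1215 to 1357 in CRE+VAF347 (log2 fold change 0.06, interval -0.08 to 0.20).

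Counting groups that do not overlap in CPM, class I had 3 genes lower with VAF347 (TAPBP, PDIA3 and ERAP1) and 1 higher (TAP2) of 19. Over all genes tested, 27.3% had groups that did not overlap in CPM, 14.8% lower and 12.5% higher. The separation depended on the unit. In TPM the groups of TAPBP, PDIA3 and TAP2 overlapped, while those of ERAP1 and also PSMB10 did not. The log2 fold change of TAP2 was 0.07 in the limma fit on log2(TPM + 1). The class I estimates had a median of -0.01, with 10 below 0 and 9 above, and ran from -0.33 for HLA-G to 0.16 for TAP2. The median over all genes tested was 0.01.

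**Figure D2:**
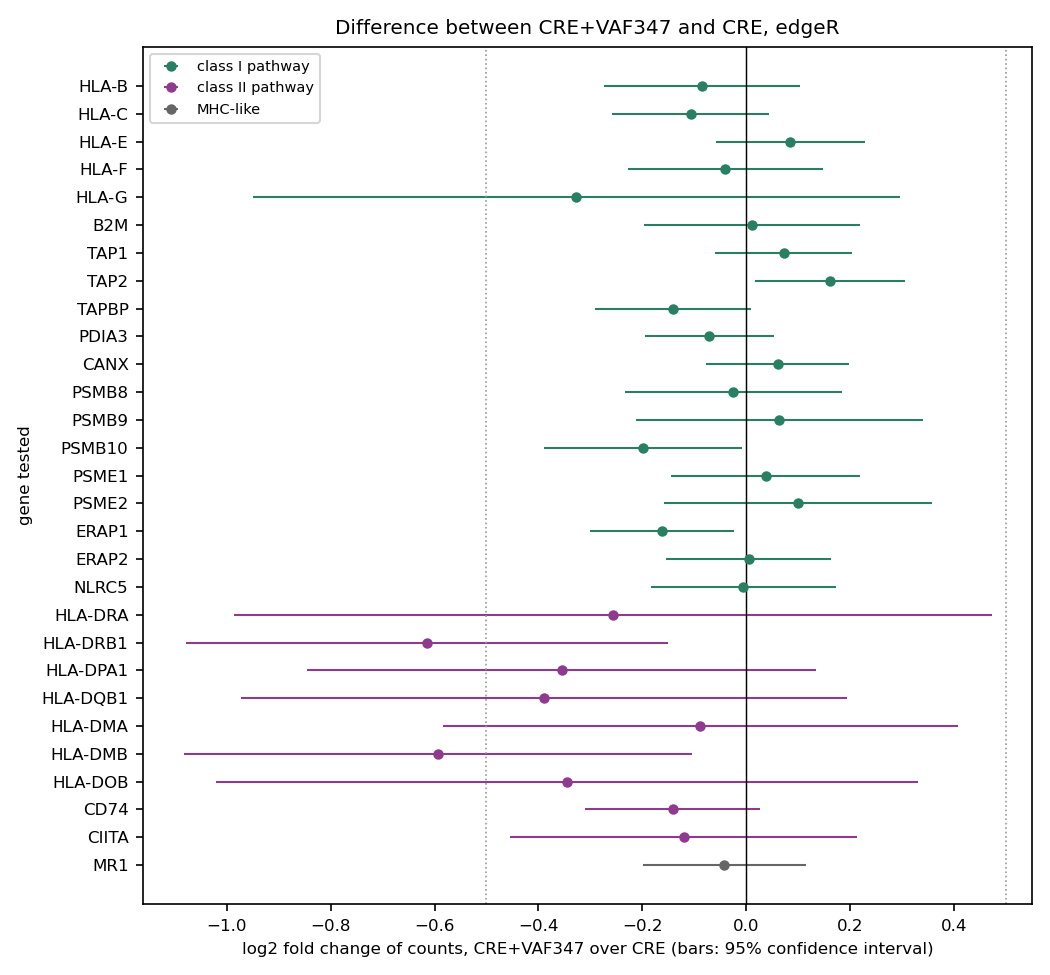
Log2 fold change of counts, CRE+VAF347 over CRE (horizontal, edgeR), with its 95% confidence interval for each of the 29 tested genes, class I in green, class II in purple and MR1 in grey; dotted lines mark 0.5 in either direction. Class I points other than HLA-G lie around 0 with short bars, HLA-G is at -0.33 with a bar from -0.95 to 0.30, and class II points lie below 0 with bars up to -1.08, among which those of HLA-DRB1 and HLA-DMB stay below 0 before adjustment.

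The immunoproteasome replaces the catalytic subunits of the standard proteasome with PSMB8 (for PSMB5), PSMB9 (for PSMB6) and PSMB10 (for PSMB7), and PSME1 and PSME2 form its PA28 activator. PSMB10 had 115, 124 and 103 CPM in CRE and 99.998, 109 and 89.1 in CRE+VAF347, a log2 fold change of -0.20 (SE 0.09, interval -0.39 to -0.01, adjusted p = 0.221). PSMB8 had 187, 188 and 145 CPM against 181, 172 and 159 (log2 fold change -0.02, interval -0.23 to 0.19). PSMB9 had 129, 146 and 93.8 CPM against 130.3, 134 and 121 (log2 fold change 0.06, interval -0.21 to 0.34). In all 3 subunits CRE replicate 3 was the lowest CRE library in CPM. In TPM that did not hold for PSMB10, at 163 in CRE replicate 1 and 176 in CRE replicate 3.

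PSME1 had 265, 270.3 and 222 CPM in CRE and 276, 259 and 243 in CRE+VAF347 (log2 fold change 0.04, interval -0.14 to 0.22). PSME2 had 360.1, 365 and 253 CPM against 356, 362 and 329.9 (log2 fold change 0.10, interval -0.16 to 0.36). In log2 CPM, all 5 genes of this group were below their group mean in CRE replicate 3, by a median of 0.24 (the deviation was -0.24). All 5 were above it in CRE replicates 1 and 2. In TPM, PSMB10 in CRE replicate 3 was above its CRE mean (176 against 173). In CRE+VAF347 likewise, all 5 were below the group mean in replicate 3 (median deviation -0.094) and above it in replicates 1 and 2. Without CRE replicate 3 PSMB10 was called, at -0.27 on the log2 scale (adjusted p = 0.0310 in edgeR's quasi-likelihood test). In that fit 1287 of 15586 genes were called, against 833 of 15373 with all libraries. PSMB10 was the only class I call when any single library was left out.

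Immunoproteasome subunits were present at a substantial fraction of their constitutive partners. The TPM ratio PSMB8 to PSMB5 was 0.784 ± 0.0319 (SD, n = 3) in CRE and 0.719 ± 0.0290 in CRE+VAF347, and its groups did not overlap, by a narrow margin between 0.752 in CRE replicate 1 and 0.750 in CRE+VAF347 replicate 1. PSMB9 to PSMB6 was 0.867 ± 0.131 and 0.778 ± 0.0118, with overlap. PSMB10 to PSMB7 was lowest, at 0.281, 0.308 and 0.421 in CRE and 0.242, 0.271 and 0.225 in CRE+VAF347, so that its groups did not overlap either. The high value of 0.421 was in CRE replicate 3. All 11 constitutive proteasome and activator genes were tested and 0 were called, with a median log2 fold change of 0.10 and every estimate above 0. The 2 highest in level were PSMB7, at 564 TPM and a log2 fold change of 0.20, and PSMB1, at 563 TPM and 0.24.

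**Figure D3:**
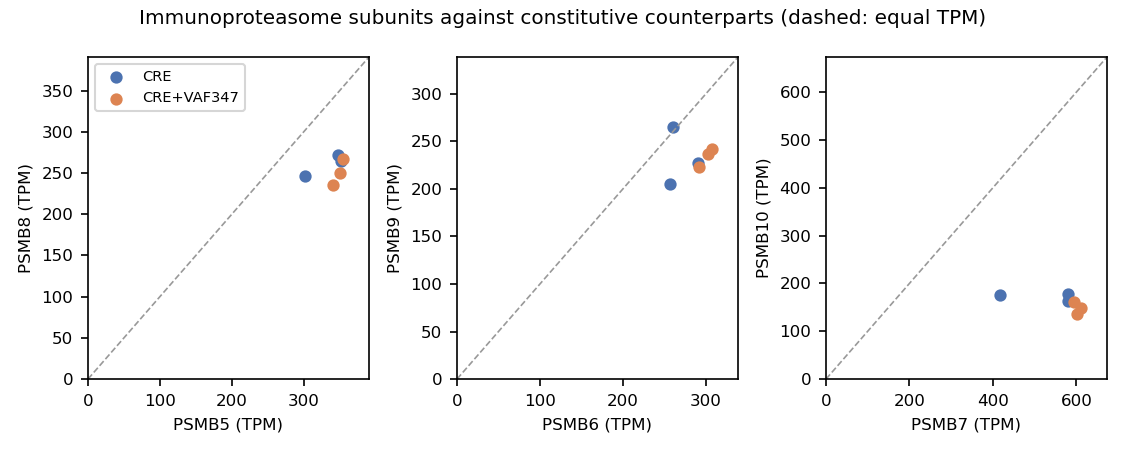
TPM of each immunoproteasome subunit (vertical) against its constitutive counterpart (horizontal), 1 point per library, 3 of CRE in blue and 3 of CRE+VAF347 in orange, with a dashed line at equal TPM. All points lie below the line except PSMB9 in CRE replicate 2, where the ratio was 1.018, and the PSMB10 points lie farthest from it.

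ERAP1 and ERAP2 trim peptides in the endoplasmic reticulum to the length class I accepts. ERAP1 had 248, 271 and 277 CPM in CRE and 240.0, 243 and 229 in CRE+VAF347, without overlap, and its log2 fold change was -0.16 (SE 0.06, interval -0.30 to -0.02, adjusted p = 0.175). ERAP2 was lower in level, at 16.6 TPM against 107 for ERAP1, and its CPM of 32.5 to 34.5 in CRE and 32.7 to 34.7 in CRE+VAF347 gave a log2 fold change of 0.00 (interval -0.15 to 0.16). NLRC5, the transactivator of class I genes, had 49.8, 61.8 and 56.2 CPM in CRE and 56.2, 56.0 and 55.1 in CRE+VAF347 (log2 fold change -0.01, interval -0.18 to 0.17).

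**Figure D4:**
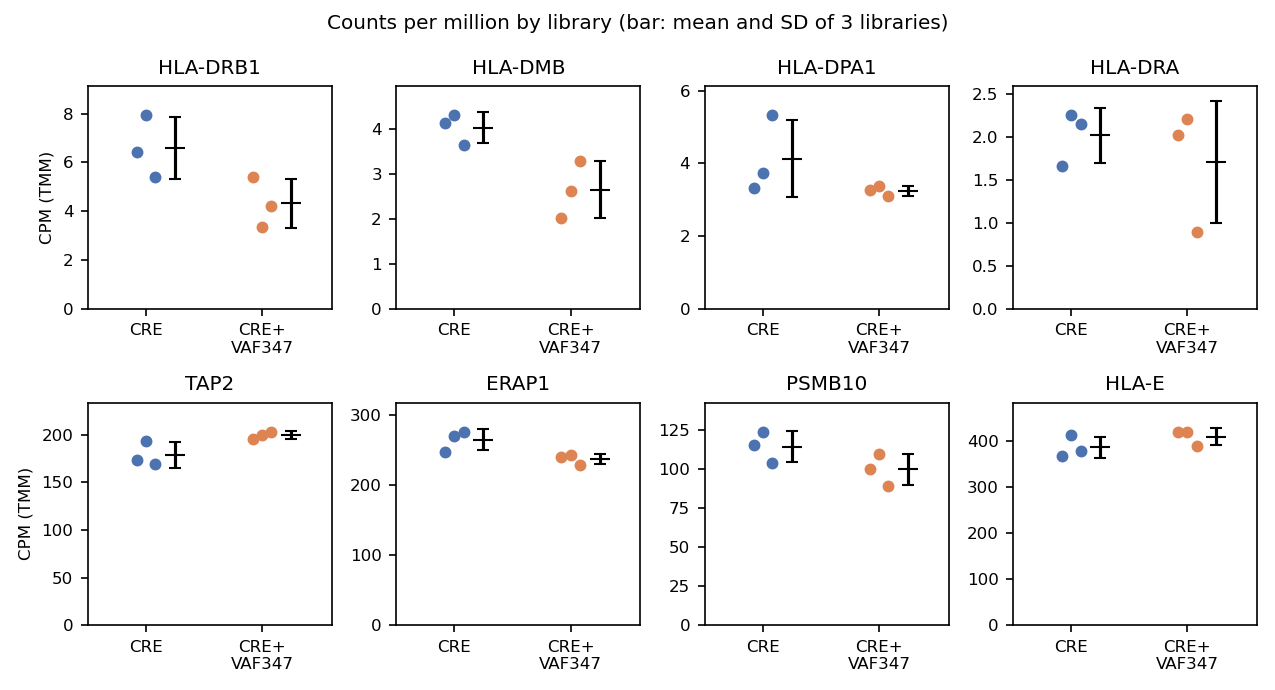
CPM by library (vertical, from 0) for 8 genes, with CRE in blue and CRE+VAF347 in orange and a bar for the mean and SD of the 3 libraries. HLA-DRB1, HLA-DMB, TAP2 and ERAP1 show no overlap between the groups, while HLA-DPA1, HLA-DRA, PSMB10 and HLA-E overlap.

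Class II genes other than CD74 were present at low levels, and the tested genes, CD74 included, had estimates of 1 sign. Of the 12 genes, 9 were tested, and all 9 had a log2 fold change below 0 with a median of -0.34 (from -0.61 for HLA-DRB1 to -0.09 for HLA-DMA), where 47.9% of all genes tested were below 0. None of the 9 was called. The 9 of 9 became 8 without CRE replicate 2 or CRE replicate 3 and 7 without CRE+VAF347 replicate 3, for which the median was -0.12. In the limma fit on TPM, 8 of 9 were below 0.

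The alpha and beta chains form the peptide groove of class II. HLA-DRB1, the beta chain of HLA-DR, had 62, 81 and 58 counts in CRE and 48, 32 and 42 in CRE+VAF347. As CPM these were 6.42, 7.95 and 5.42 against 5.39, 3.36 and 4.19, so each CRE library was above each CRE+VAF347 library, by a narrow margin between CRE replicate 3 and CRE+VAF347 replicate 1. The log2 fold change of -0.61 (SE 0.21, interval -1.08 to -0.15) corresponds to a change of -34.7% (from -52.6% to -9.89%), with an adjusted p of 0.125. Without CRE replicate 3 it was -0.74 with an adjusted p of 0.0413, the only class II call when any single library was left out. In that fit 1287 of 15586 genes were called, against 833 of 15373 with all libraries. HLA-DRB5, its close copy, had a mean of 0.287 CPM in CRE and 0.247 in CRE+VAF347 and was not tested.

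HLA-DRA, the alpha chain that pairs with HLA-DRB1, did not separate the groups. It had 16, 23 and 23 counts in CRE and 18, 21 and 9 in CRE+VAF347, and its log2 fold change of -0.26 (interval -0.99 to 0.47, adjusted p = 0.703) rested on CRE+VAF347 replicate 3, without which it was 0.06. HLA-DPA1 had 3.31, 3.73 and 5.33 CPM in CRE and 3.26, 3.36 and 3.09 in CRE+VAF347 (log2 fold change -0.36, interval -0.85 to 0.14), and without CRE replicate 3, its highest library, the estimate was -0.12. HLA-DQB1 had 3.31, 2.85 and 3.08 CPM against 1.461, 2.52 and 2.99 (log2 fold change -0.39, interval -0.97 to 0.19), and the estimate was -0.16 without CRE+VAF347 replicate 1 and -0.62 without CRE+VAF347 replicate 3.

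The partners of these chains were scarcely present. HLA-DPB1 had 1 to 6 counts per library and HLA-DQA1 had 0 to 2, and both were left out by the filter. The members of a pair were far apart in level, with HLA-DPA1 at 6.08 TPM and HLA-DPB1 at 0.519 TPM, and with HLA-DQB1 at 2.71 TPM and HLA-DQA1 at 0.0566 TPM. HLA-DRB1 and HLA-DRA, at 7.06 and 2.92 TPM, were nearer to each other.

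HLA-DM, made of HLA-DMA and HLA-DMB, exchanges peptides on class II, and HLA-DO, made of HLA-DOA and HLA-DOB, restrains it. HLA-DMB had 40, 44 and 39 counts in CRE and 18, 25 and 33 in CRE+VAF347, which were 4.14, 4.32 and 3.65 CPM against 2.02, 2.63 and 3.29. The groups did not overlap, and the log2 fold change was -0.59 (SE 0.22, interval -1.08 to -0.10, adjusted p = 0.159). HLA-DMA, its partner, had 5.18, 6.67 and 5.23 CPM against 5.17, 7.15 and 3.79, and CRE+VAF347 replicate 2 was its highest library (log2 fold change -0.09, interval -0.58 to 0.41). HLA-DOB had 2.17, 2.55 and 2.15 CPM against 2.58, 1.79 and 1.097 (log2 fold change -0.34, interval -1.02 to 0.33), and the estimate was -0.08 without CRE+VAF347 replicate 3 and -0.68 without CRE+VAF347 replicate 1. HLA-DOA had 0 to 4 counts per library and was not tested. Among the 9 tested class II genes, HLA-DRB1 and HLA-DMB were the 2 whose groups did not overlap in CPM, both lower. Of all genes tested, 14.8% were lower without overlap in CPM. In TPM the groups of HLA-DRB1 and HLA-DMB did not overlap either, nor did those of HLA-DPA1.

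The promoters of HLA-DRB1 and HLA-DMB are shown because these were the 2 class II genes with the largest estimates. Class II promoters are known for a conserved row of W, X and Y boxes, which RFX, CREB and NF-Y factors bind and on which CIITA assembles. Capitals mark the same motifs as in the class I stretches and the longest run shared by both windows, AACTGATGATGCTA.
HLA-DRB1, chr6:32589849-32590098, minus strand: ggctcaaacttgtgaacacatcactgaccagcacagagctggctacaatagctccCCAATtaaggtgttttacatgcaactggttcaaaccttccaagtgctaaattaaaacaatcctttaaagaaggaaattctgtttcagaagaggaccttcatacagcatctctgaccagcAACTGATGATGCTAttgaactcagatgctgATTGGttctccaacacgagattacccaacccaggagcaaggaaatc
HLA-DMB, chr6:32941029-32941278, minus strand: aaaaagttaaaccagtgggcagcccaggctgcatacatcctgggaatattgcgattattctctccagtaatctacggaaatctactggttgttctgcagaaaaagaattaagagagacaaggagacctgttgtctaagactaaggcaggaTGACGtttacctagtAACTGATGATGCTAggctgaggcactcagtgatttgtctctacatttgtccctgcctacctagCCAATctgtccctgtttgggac

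The shared run is 14 bases long, starts at -76 in HLA-DRB1 and at -85 in HLA-DMB, and was found in 2 of 35116 windows, those of these same genes. It was picked as the longest match between these windows, so both hold it by construction, and the count is given as a description. The windows as a whole were identical in 49.3% of alignment columns, close to the 46.6% between the unlike promoters of HLA-B and B2M. A CCAAT match follows the run in both genes, at -46 to -42 in HLA-DRB1 (as ATTGG) and at -22 to -18 in HLA-DMB. Neither window held the ISRE, GAS or AhR core letters.

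CD74, the invariant chain, was far more abundant than the chains it serves. It had 165 TPM over all libraries, and the ratio of CD74 to HLA-DRA in TPM ran from 45.6 to 104. CPM were 136, 155 and 138 in CRE and 138, 134 and 117 in CRE+VAF347, with CRE+VAF347 replicate 3 the lowest, and the log2 fold change was -0.14 (SE 0.08, interval -0.31 to 0.03, adjusted p = 0.327). CIITA, the master transactivator of class II, had 18.1, 14.3 and 21.8 CPM against 14.5, 18.9 and 16.5 (log2 fold change -0.12, interval -0.46 to 0.21, adjusted p = 0.696), and its estimate was positive, at 0.17, in the limma fit on log2(TPM + 1).

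Summed, the 10 class II chain and editing genes had 26.5, 31.4 and 27.5 CPM in CRE and 22.2, 23.9 and 19.95 in CRE+VAF347, without overlap. The 6 chains alone summed to 19.7, 23.4 and 25.3 TPM in CRE (22.8 ± 2.86, SD, n = 3) and 16.3, 16.1 and 15.4 in CRE+VAF347 (15.9 ± 0.469). The ratio of the 5 class I heavy chains to the 6 class II chains, in TPM, was 132 ± 4.76 in CRE and 175 ± 0.364 in CRE+VAF347. These sums carry no test, since the genes were chosen with results of these libraries known. Groups of 3 libraries allow no exact two-sided permutation p under 0.1.

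Of 10 markers of leukocytes and professional antigen presenting cells, 2 passed the filter on low counts, and the sum of all 10 was lower with VAF347. The 10 markers summed to 16.6 to 20.8 TPM in CRE and 12.6 to 13.1 in CRE+VAF347. PTPRC, the marker of all leukocytes, had 0 to 2 counts per library, and MS4A1, FCER1A and CLEC9A were at 0 in every library. Most of the sum was CSF1R, the receptor of macrophage colony-stimulating factor, with 147 to 298 counts per library, which fell with VAF347 (log2 fold change -0.59, adjusted p = 0.0265 in edgeR's quasi-likelihood test), a call that was lost without CRE replicate 2 or any 1 of the CRE+VAF347 libraries (adjusted p from 0.0533 to 0.126). The part of these markers in the class II values was not tested.

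Among the MHC-like molecules, MR1, which shows bacterial vitamin metabolites to MAIT cells, had 35.3, 35.8 and 37.1 CPM in CRE and 36.6, 34.3 and 34.3 in CRE+VAF347, and its log2 fold change was -0.04 (interval -0.20 to 0.12, adjusted p = 0.784). CD1D, which shows lipids to NKT cells, had 0 counts in every library. A count of 0 allows up to 3 counts, or 0.279 to 0.338 CPM in these libraries.

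Few genes of the wider pathway passed the test. Of 9 other class I loading and cytosolic trimming genes 0 were called, with CALR (calreticulin) at 935 TPM and a log2 fold change of -0.19 (adjusted p = 0.139), and SEC61B at 467 TPM and 0.16 (adjusted p = 0.536). Of 9 factors that act at MHC promoters 0 were called, with EZH2, a histone methyltransferase, at 84.7 TPM and -0.02, and RFX5, a subunit of the RFX complex, at 68.8 TPM and -0.08. Of 12 interferon gamma signalling genes 0 were called, with IRF1 at 225 TPM and 0.16 (adjusted p = 0.189). The background for each of these counts is the 5.42% of all genes tested.

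The called gene nearest to the class II pathway works in the endosome. Of 9 class II endosomal processing genes, 1 was called, where 5.42% of all genes tested were, and it was CTSD (cathepsin D, an aspartic protease of the endosome and lysosome). It had 678, 715 and 787 CPM in CRE and 536, 523 and 494 in CRE+VAF347 (727 ± 55.4 against 518 ± 21.97, SD, n = 3), and it fell by 0.49 on the log2 scale (SE 0.07, adjusted p = 0.00238). The call held without any single library and was lost in the limma fit on TPM, where the log2 fold change was the same and the adjusted p was 0.131. CTSB (cathepsin B), at 327 TPM, was at -0.17 on the log2 scale (adjusted p = 0.192).

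Several of these genes share sequence or territory with neighbours, which bears on how firmly their counts can be read. HLA genes are alike and vary between people, and Salmon divides fragments among similar transcripts of a reference. TAP2 and HLA-DOB both overlap ENSG00000250264 on the same strand, a gene with a mean of 28.2 CPM, and PSMB10 overlaps ENSG00000261884 with 13.1 CPM. ERAP1 overlaps CAST (599 CPM) and HLA-DMA overlaps BRD2 (309 CPM) on the opposite strand, and HLA-DPA1 and HLA-DPB1 overlap each other, as do TAP1 and PSMB9. Whether strand was used in counting is not given in the sources used here, and the effect of these overlaps was not tested.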

How the data were processed

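Poly(A) RNA of 6 HBE libraries, 3 per group, was sequenced in pairs. The authors made the expected counts with Salmon and deposited them per gene name, unscaled. The TPM values deposited by the authors come from the same step. The submitters' processing notes name Salmon and hg38, and the Salmon version and annotation are not given in the sources used here. A further deposited table holds the authors' DESeq2 comparison (mean normalized counts, log2 fold changes and p-values) and was not used. All 61228 names were found in GENCODE v44, and 0 columns were left unmatched.

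After rounding of the 14.5% of counts with decimals, edgeR 4.0.16 under R 4.3.3 was used to filter genes (filterByExpr), scale libraries (TMM) and test 15373 genes by quasi-likelihood, with Benjamini-Hochberg adjustment and calls at an adjusted p under 0.05. A standard error is the log2 fold change over the root of F. DESeq2 1.42.0 and limma 3.58.1 on log2(TPM + 1), with genes of a mean TPM of at least 1, were alternatives, with others given under the dependence on processing. On simulated data for this comparison, over 15144 genes, edgeR recovered 86 of 98 genes changed by 1 on the log2 scale and 98 of 98 changed by 2, with 17 false calls. Floors of 3 counts cover counting error only.

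The members, the other lists and the tests were chosen with earlier results of these data known. Every member is named, and of the other lists every called gene and the 2 genes of highest mean TPM, apart from genes not reported here. HLA-DRB5, the ratio of HLA-B to HLA-E and the HLA pseudogenes were chosen after values were seen. Promoter windows are from RefSeq, GRCh38.p14. The identity of proteins was not analysed here.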

Additional observations from a re-analysis of the deposited data

How the results depend on the processing

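Over the 29 tested members, other settings left the class I count at 0 except without CRE replicate 3, and the range over single libraries left out was 0 to 1 (PSMB10). The class II count was 0 to 1 over single libraries left out (HLA-DRB1) and 1 without a filter on low counts (HLA-DRB1, adjusted p = 0.0277). It was 2 by an unadjusted p under 0.05 with an absolute log2 fold change over 0.5 (HLA-DRB1 and HLA-DMB, both lower). That last threshold listed 749 of the 15373 genes tested, 502 of them lower. Over all genes the 833 calls became 1586 without the filter, 340 with an absolute log2 fold change over 0.5, 87 and 85 by limma on TPM with a pseudocount of 1 and 0.1, 32 by limma without a filter, and 305 to 1287 over single libraries left out, the fewest when CRE+VAF347 replicate 3 and the most when CRE replicate 3 was dropped. DESeq2 called 623, of which 0 were members.

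Some estimates changed sign, most of them near 0, but also those of HLA-G (-0.33) and HLA-DRA (-0.26). With a GC offset per library HLA-F was at 0.010, B2M at -0.054, CANX at -0.011, PSMB8 at 0.0074, ERAP2 at -0.054 and NLRC5 at 0.047. In the 3 limma fits B2M was at -0.048 in each, ERAP2 at -0.016, -0.017 and -0.016, NLRC5 at 0.025, 0.026 and 0.025, and CIITA at 0.17, 0.21 and 0.17. Over single libraries left out the ranges were -0.14 to 0.018 for HLA-B, -0.12 to 0.072 for HLA-F, -0.55 to 0.012 for HLA-G, -0.085 to 0.10 for B2M, -0.14 to 0.038 for PSMB8, -0.10 to 0.21 for PSMB9, -0.048 to 0.089 for PSME1, -0.054 to 0.19 for PSME2, -0.026 to 0.024 for ERAP2, -0.081 to 0.073 for NLRC5, -0.50 to 0.057 for HLA-DRA, -0.36 to 0.11 for HLA-DMA and -0.26 to 0.041 for CIITA. The cause was not tested. Among genes with a log2 CPM over 3, the median log2 fold change was 0.11 in the tenth with the lowest GC content and -0.09 in that with the highest. Most class II members lie below that level. With the GC offset 0 members were called.

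Correlations between libraries of the same replicate number were small (0.053, 0.033 and 0.015), though each library correlated best with its own number. Whether the replicate numbers pair the libraries cannot be told from these values. The replicate block gave 726 calls over all genes and 0 members. For class II genes depth limits what can be seen, at 9 to 81 counts per library for those tested besides CD74 and CIITA.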

Other observations

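Beyond peptide presentation, some ligands that T cells and NK cells read on the same surface were measured. Of 12 costimulatory and checkpoint ligands 9 were tested and 2 were called, both lower with VAF347, where 4.07% of all genes tested were called lower in edgeR's quasi-likelihood test. VTCN1 (B7-H4), an inhibitory ligand, had 25.2, 35.0 and 34.0 CPM in CRE and 20.1, 21.8 and 13.6 in CRE+VAF347 and fell by 0.77 on the log2 scale (SE 0.17, adjusted p = 0.0232). CD276 (B7-H3) had 83.6, 88.6 and 96.2 CPM against 74.5, 69.8 and 75.6 and fell by 0.29 (SE 0.07, adjusted p = 0.0367). The VTCN1 call held in 9 and the CD276 call in 6 of 15 fits, the reported one included, and both were lost without CRE replicate 2, CRE+VAF347 replicate 1 or CRE+VAF347 replicate 3 (adjusted p from 0.0680 to 0.0991), and CD276 also without CRE+VAF347 replicate 2 (0.155). CD40 (138 TPM) had a log2 fold change of 0.20 (adjusted p = 0.0675) and NECTIN2 (61.9 TPM) of -0.07. CD80 and CD86, the ligands of CD28, were at 0 counts in every library. Of 8 NKG2D ligands 5 were tested and 0 called, with MICA at 42.7 TPM (log2 fold change 0.08) and MICB at 37.4 TPM (-0.04). Of 8 other MHC-like molecules 3 were tested and 0 called, with PROCR at 71.6 TPM (0.05) and the neonatal Fc receptor FCGRT at 44.8 TPM (0.01), and CD1A, CD1B, CD1C and CD1E were at 0.

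HLA-H, HLA-J, HLA-K, HLA-L and HLA-V are known as class I pseudogenes, though GENCODE v44 types HLA-L and HLA-V as lncRNA. They summed to 46.8, 46.1 and 48.2 CPM in CRE and 40.00, 40.6 and 35.1 in CRE+VAF347, without overlap. The 5 heavy chains summed to 3066 to 3629 CPM in CRE and 2938 to 3189 in CRE+VAF347. How much sequence the pseudogenes share with the heavy chains was not computed. HLA-V was called lower, at -0.43 on the log2 scale (adjusted p = 0.0361 in edgeR's quasi-likelihood test), a call that was lost without any single library except CRE replicate 3 (adjusted p from 0.0663 to 0.145). HLA-H was at -0.27 (adjusted p = 0.233) and HLA-L at -0.05 (adjusted p = 0.898). The division of fragments between pseudogenes and genes was not tested.

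The marker lists are set against the 5.42% of all genes tested that were called and the 4.07% called lower. Of 7 tested genes in the epithelial list 1 was called, KRT19, lower (log2 fold change -0.38, adjusted p = 0.0265 in edgeR's quasi-likelihood test). Its adjusted p was 0.0732 to 0.128 without CRE replicate 2 or any 1 of the CRE+VAF347 libraries. Estimates in that list ran up to 0.97, with 0 called higher, and TP63 had 0 to 1 counts per library. Of 3 tested endothelial markers 2 were called, CDH5 (-0.84 on the log2 scale, adjusted p = 0.00119) and VWF (-1.45, adjusted p = 0.0107, on 10 to 39 counts), both lower (VWF not without CRE+VAF347 replicate 2 or 3, at an adjusted p of 0.0633 and 0.0595), and PECAM1 had 0 to 3 counts. Of 6 fibroblast markers 2 were tested and 0 called, and PDGFRA, DCN and LUM were at 0.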
